A study of Macaca mulatta with 136 samples.

Results

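The genes described here encode the subunits of voltage-gated calcium, voltage-gated sodium and HCN channels. They were taken as every entry whose gene symbol begins with CACNA, CACNB or CACNG, has the form SCN, a number and A or B, or is HCN and a number, with 1 row for each Ensembl gene. The rule found 40 of the 19422 genes, of which 25 belong to calcium channels (4 Cav1, 3 Cav2 and 3 Cav3 alpha1 subunits, 4 alpha2delta, 4 beta and 7 gamma subunits), 13 to sodium channels (10 alpha and 3 beta subunits) and 2 to HCN channels. HCN3 was not analysed here.

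The RNA came from the postmortem eyes of 2 adult rhesus macaques, RM03 and RM04, which carried no treatment or allele named in the labels. At 4 locations, called fovea/macula, perimacula, nasal and periphery (on the temporal side), tissue was punched out at a diameter of 2 mm, and neural retina was taken apart from RPE/choroid, which is the retinal pigment epithelium plus the vascular choroid under it. Each tissue and location is represented by 4 eyes, the right (eye 1) and left (eye 2) eye of RM03 and the right (eye 3) and left (eye 4) eye of RM04, 32 libraries in all. Values are estimated counts per 1000000 (CPM), always listed in the order of eyes 1 to 4. Each library was scaled by its total over the genes passing a filter on low counts, multiplied by a TMM normalization factor. The libraries held between 42448891 and 78574034 estimated counts. Fellow eyes share an animal, so that the p-values below measure the spread between eyes of 2 animals.

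Voltage-gated channels open when the membrane potential changes. The alpha subunit forms the pore, and the beta, alpha2delta and gamma subunits set how much of it reaches the membrane and how it gates. In the retina, Cav1.4 (CACNA1F) with alpha2delta-4 (CACNA2D4) and beta-2 (CACNB2) feeds transmitter release from photoreceptor terminals, whereas sodium channels carry the action potentials of ganglion cells and of some amacrine cells. HCN channels open on hyperpolarization and shape the light response of photoreceptors and bipolar cells, and T-type (Cav3) channels open near rest. In the choroid, channels of these families are known from the smooth muscle of vessels and from nerve fibres and their glia.

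Several features of the libraries stood beside the results. In retina the summed level of 10 ganglion cell markers ran from 10430 to 12343 CPM at the fovea, 3228 to 6965 at the perimacula, 2335 to 2632 at the nasal location and 587 to 1268 CPM at the periphery, while that of 9 rod markers ran from 4013 to 4610 at the fovea and from 23892 to 28042 at the periphery. No marker of either list was at 0 in any group. Retinal perimacula eye 4 had the highest ganglion cell sum and the lowest rod sum of its group (6965 and 10645 CPM). In RPE/choroid the sum of 7 smooth muscle markers was 6060 to 10283 CPM at the fovea and 623 to 2215 at the periphery, where 1 entry for TAGLN was at 0. Rod markers summed to 539 CPM in RPE/choroid fovea eye 3 and to 924 and 691 in periphery eyes 1 and 4, against 50.1 to 214 in the other 13 RPE/choroid libraries, and Schwann cell markers reached 10810 CPM in perimacula eye 1 and 6515 and 16784 in periphery eyes 1 and 2, against 868 to 2968 elsewhere. RPE markers summed to 10649 to 26772 CPM in RPE/choroid and to 186 to 1357 in retina. The periphery libraries were sequenced on 1 flow cell of their own and the others on 2 shared flow cells, so that periphery and flow cell cannot be told apart. In punches of whole tissue, fewer cells of a type and less RNA per cell cannot be told apart.

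Most channel subunits tested in retina were higher at the fovea than at the periphery. Of the 36 members that passed the filter on low counts, 23 were higher and 4 lower at the fovea (edgeR quasi-likelihood test, adjusted p under 0.05), against 31% of all 15380 genes tested that were higher and 36% that were lower. The median log2 difference was 0.94 over these 36 members and -0.056 over all genes tested. The 4 lower members were CACNA1F, CACNA2D4, SCN3B and SCN4A.

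The sodium channel alpha subunits of the brain fell steeply from the fovea outward. SCN1A (Nav1.1, a channel of axon initial segments) read 270.5, 231, 228 and 241 CPM at the fovea, 116, 110, 85.3 and 180.2 at the perimacula, 79, 70.7, 87.4 and 87 at the nasal location and 37.4, 24.4, 38.4 and 30.8 CPM at the periphery. All 4 foveal eyes lay above every other retinal library, and the nasal and peripheral eyes did not overlap. The log2 difference from the periphery was 2.95 ± 0.22 (SE), adjusted p = 3.8e-07. SCN8A (Nav1.6, the channel of mature initial segments and nodes) read 126, 115, 120 and 126 CPM at the fovea, 44, 47.2, 42.8 and 84.5 at the perimacula, 34.2, 31.2, 38.9 and 38.4 at the nasal location and 20.1, 15.5, 19.5 and 15.6 CPM at the periphery. No 2 locations overlapped, and perimacula eye 4, the library with the high ganglion cell sum, stood apart from its group. The difference between fovea and periphery was 2.84 ± 0.20 (SE), adjusted p = 2.79e-07.

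SCN2A (Nav1.2) showed the same order. It read 146, 118, 135 and 134 CPM at the fovea against 28.4, 24.9, 35.8 and 30.6 at the periphery, a log2 difference of 2.22 ± 0.17 (SE), adjusted p = 4.77e-07. SCN3A (Nav1.3, best known from developing neurons) read 30, 25, 21.9 and 21.7 CPM at the fovea and 6.78, 5.59, 6.78 and 5.53 at the periphery, with 2.04 ± 0.14 (SE) on the log2 scale. In each of these 4 genes the difference had the same sign in 4 of 4 eyes, and the part of the ganglion cell markers in it was not tested.

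Accessory beta subunits, which anchor the pore subunits and change their gating, did not all move the same way. SCN2B, with 43.6 to 47.7 CPM at the fovea and 3.83 to 11.3 at the periphery, was higher at the fovea (2.65 on the log2 scale). SCN3B went the other way. Its values were 7.79, 6.32, 5.50 and 5.77 CPM at the fovea and 9.22, 6.86, 11.3 and 8.15 at the periphery, which overlap, and the log2 difference was -0.44 ± 0.16 (SE), adjusted p = 0.0284, a call that was lost when eye 1, 3 or 4 was left out.

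Among the alpha1 subunits of calcium channels, CACNA1A, CACNA1B and CACNA1H had the largest positive differences between fovea and periphery. CACNA1A (Cav2.1, the P/Q-type channel of many presynaptic terminals) read 132, 110.2, 113 and 120.4 CPM at the fovea, 68.8, 74.3, 49.8 and 84 at the perimacula, 55.4, 56.2, 49.9 and 44 at the nasal location and 27.4, 16.2, 23.5 and 15.8 CPM at the periphery. The foveal eyes lay above all others and the peripheral eyes below all others. The log2 difference between these ends was 2.58 ± 0.20 (SE), adjusted p = 4.64e-07. CACNA1B (Cav2.2, the N-type channel) ranged from 45.2 to 67.5 CPM at the fovea and from 8.07 to 18.9 at the periphery and was also higher at the fovea, whereas CACNA1E (Cav2.3) was not called (0.089 ± 0.15 (SE), adjusted p = 0.608).

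CACNA1H (Cav3.2, a T-type channel) had the largest log2 difference between fovea and periphery of the 36 members tested. It read 179, 219.9, 338 and 335 CPM at the fovea, 52.4, 87, 99.4 and 138 at the perimacula, 52.9, 63.6, 77 and 74.5 at the nasal location and 17.2, 6.32, 24.6 and 28.8 CPM at the periphery. The foveal values did not overlap those of another location, and periphery eye 2, which also had the lowest ganglion cell sum of its group, was the lowest. The log2 difference was 3.92 ± 0.29 (SE), adjusted p = 3.6e-07. CACNA1G (Cav3.1), of the same family, read 79.3, 83.2, 117 and 119.7 CPM at the fovea and 59.4, 40.6, 111 and 84.9 at the periphery. The groups overlapped, each eye of RM04 being above the eyes of RM03 at the fovea, and the log2 difference was 0.53 ± 0.16 (SE), adjusted p = 0.0123, which was not called without eye 1. For CACNA1I (Cav3.3) it was 0.12 ± 0.15 (SE), adjusted p = 0.502, so that the members of the T-type family differed widely in their gradients, although these differences between genes were not themselves tested.

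The L-type family also divided. CACNA1F (Cav1.4) read 467, 423, 474 and 445 CPM at the fovea, 850.4, 825, 884 and 683 at the perimacula, 898, 1041, 965 and 948 at the nasal location and 1128, 1050.0, 972 and 998 CPM at the periphery. All foveal eyes were below all other retinal libraries, and nasal and peripheral eyes overlapped. Fovea minus periphery was -1.14 ± 0.085 (SE), adjusted p = 3.8e-07. CACNA1D (Cav1.3, a channel that opens at low voltages) read 27, 22.8, 28.1 and 28.9 CPM at the fovea and 16.2, 11.3, 23.2 and 16.4 at the periphery and overlapped between them in eye 3 of the periphery and eye 2 of the fovea. Its log2 difference from the periphery was 0.74 ± 0.14 (SE), adjusted p = 0.000571. CACNA1C (Cav1.2, the cardiac and vascular L-type channel) read 7.63, 9.26, 10.4 and 10.2 CPM at the fovea and 5.29, 3.79, 7.21 and 4.90 at the periphery, a log2 difference of 0.88 ± 0.20 (SE).

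The partners of Cav1.4 followed it in part. CACNA2D4 read 315, 356, 324 and 295 CPM at the fovea, 486, 582, 548 and 362 at the perimacula, 638, 723, 551 and 550.4 at the nasal location and 710.5, 598, 514 and 638 CPM at the periphery. Every foveal eye was below every other retinal library, and the log2 difference from the periphery was -0.88 ± 0.13 (SE), adjusted p = 6.51e-05. CACNB2 read 141, 137, 120.5 and 126 CPM at the fovea and 172, 191, 113 and 119.8 at the periphery. These groups overlapped and the test made no call (-0.10 ± 0.11 (SE), adjusted p = 0.434). Rod marker sums moved in the direction of CACNA1F and CACNA2D4. So did other lists, among them Mueller glia markers, with 1518 to 1662 CPM at the fovea and 4110 to 5956 at the periphery. Cone marker sums went the other way, with 3427 to 4233 CPM at the fovea and 2809 to 3038 at the periphery. The part of these lists was not tested.

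The other auxiliary subunits of calcium channels mostly declined outward. Of the alpha2delta subunits, CACNA2D1 and CACNA2D3 were higher at the fovea than at the periphery by 1.02 and 1.89 on the log2 scale, and CACNA2D2 was not called (0.11). CACNB3 (beta-3) read 57.9, 58.5, 58.6 and 64.9 CPM at the fovea and 13.8, 7.36, 19.4 and 12.1 at the periphery, without overlap, and differed by 2.27 ± 0.20 (SE), adjusted p = 1.07e-06. CACNB4 (beta-4) read 9.23, 7.59, 10 and 10.2 and 2.83, 2.32, 4.66 and 3.09 CPM, a log2 difference of 1.60 ± 0.17 (SE), and CACNB1 was 1.48 higher. The gamma subunits include the TARPs, which traffic AMPA receptors rather than calcium channels. CACNG2 (stargazin) read 27.9, 27.8, 31.2 and 33.5 CPM at the fovea and 2.71, 1.53, 4.55 and 3.70 at the periphery, 3.39 ± 0.22 (SE), adjusted p = 1.73e-07 on the log2 scale. CACNG7 read 156, 172, 172 and 188 and 39.2, 31, 54.8 and 45.7 CPM, again without overlap, and differed by 2.08 ± 0.12 (SE). CACNG4 differed by only 0.47 ± 0.11 (SE), adjusted p = 0.00218, from 19, 23.6, 19.3 and 20.3 CPM at the fovea and 16.1, 17.1, 14.2 and 14.5 at the periphery. CACNG3, with 60.9, 53.4, 50.4 and 47.3 CPM at the fovea and 38.6, 32.1, 56.4 and 38.2 at the periphery, overlapped in eye 3 and had an adjusted p of 0.0275, a call lost when eye 1, 2 or 4 was left out.

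Both HCN genes were higher at the fovea. HCN2 read 99.4, 114, 127 and 125 CPM at the fovea, 44.1, 62.7, 56.1 and 65.3 at the perimacula, 49.6, 44.7, 55.1 and 55.9 at the nasal location and 26.2, 14.9, 33.8 and 30.7 CPM at the periphery. The foveal and peripheral eyes stood clear of the other locations, and the log2 difference between them was 2.22 ± 0.18 (SE), adjusted p = 6.13e-07. HCN4, the slow pacemaker channel, read 10, 10, 7.56 and 10.8 CPM at the fovea and 4.83, 3.89, 6.38 and 5.14 at the periphery, which did not overlap, and differed by 0.997 ± 0.18 (SE), adjusted p = 0.00039.

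**Figure D1:**
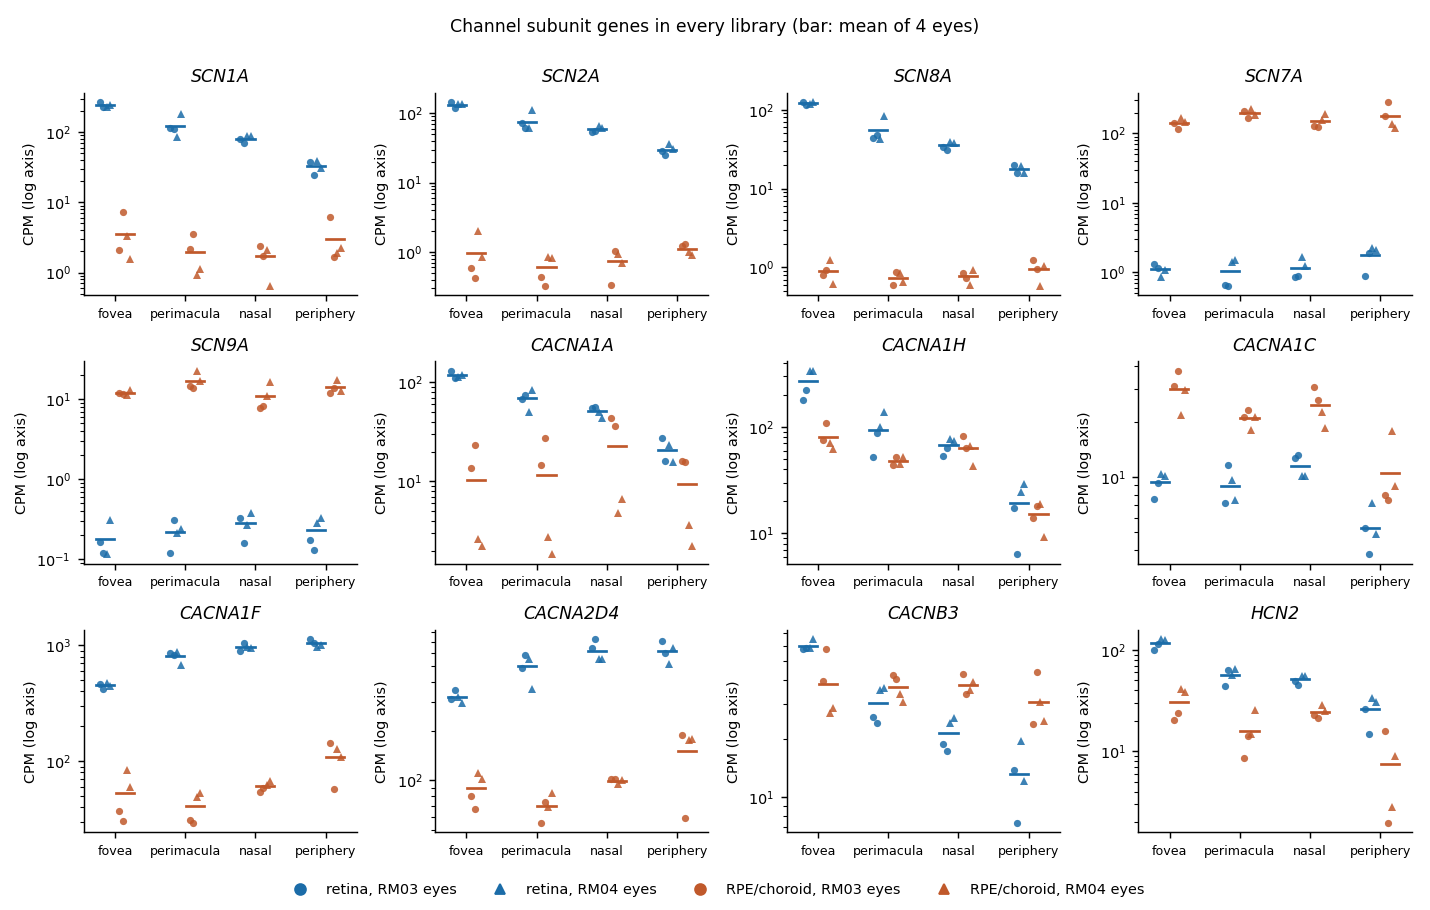
CPM (log axis) of 12 channel genes at 4 locations in retina (blue) and RPE/choroid (orange), with 1 point for each library, circles for the eyes of RM03, triangles for those of RM04 and a bar at the mean of the 4 eyes. In retina SCN1A falls from between 228 and 270.5 CPM at the fovea to between 24.4 and 38.4 at the periphery and CACNA1F rises from between 423 and 474 to between 972 and 1128, while SCN7A stays between 117 and 284 CPM in RPE/choroid and under 2.26 in retina.

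The comparisons of the fovea with the perimacula and with the nasal location share its 4 foveal libraries with the comparison above, but were made within shared flow cells. Against the perimacula, 19 of 36 members tested were higher at the fovea and 2 lower, where 19% and 16.2% of all genes were. The 2 lower members were CACNA1F and CACNA2D4, with log2 differences of -0.78 and -0.55. Against the nasal location, 18 of 36 were higher and 7 lower, where 25.1% and 27.2% of all genes were. The median log2 difference was 0.53 and 0.44 over the members tested and 0.0080 and -0.037 over all genes tested.

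Sodium channel subunits changed already at the perimacula. SCN1A was 1.04 ± 0.21 (SE), adjusted p = 0.00243 higher on the log2 scale at the fovea than there and 1.63 ± 0.19 (SE), adjusted p = 4.86e-06 higher than at the nasal location. For SCN8A the values were 1.22 ± 0.19 (SE) and 1.81 ± 0.17 (SE) and for SCN2A 0.88 ± 0.17 (SE) and 1.23 ± 0.14 (SE). CACNA1H differed from the perimacula by 1.57 ± 0.26 (SE), adjusted p = 0.000946 and from the nasal location by 1.99 ± 0.26 (SE), adjusted p = 1.61e-05. HCN2 did so by 1.08 and 1.22.

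Other members had no straight course across the retina. The mean of CACNA1G was highest at the nasal location, with 111, 125, 159 and 133 CPM, and was not called against the fovea there (-0.39 ± 0.17 (SE), adjusted p = 0.0678). CACNB2 read 182, 154, 151 and 163 CPM at the perimacula and 179, 165, 149.5 and 143 at the nasal location, each above the foveal value of the same eye. The call for CACNB2 against the nasal location (adjusted p = 0.0418) was lost with the eye as a block, RLE normalization, DESeq2 or other filters on low counts. Without the monkey covariate, with fellow eyes summed or with 2 lanes per library, the call was lost too. It was also lost when eye 1, 3 or 4 was left out. The other members lower at the fovea than at the nasal location were CACNA1F (-1.05) and CACNA2D4 (-0.89), and CACNA1E, CACNA1I, CACNA2D2 and SCN3B with log2 differences between -0.74 and -0.27. The call was lost for CACNA1E without eye 1, 2 or 4, for CACNA2D2 without eye 2, 3 or 4 and for SCN3B without eye 3 or 4.

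In RPE/choroid fewer members differed between fovea and periphery, and partly other members. Of 34 tested, 8 were higher at the fovea and 3 lower, where 21.2% and 22.9% of all 15674 genes tested were. The median log2 difference was -0.037 over these 34 members and -0.060 over all genes. Higher were, among others, CACNA1C, CACNA1D, CACNA1H, CACNA2D1, CACNB1 and HCN2.

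CACNA1H in RPE/choroid read 75.7, 109.8, 70.5 and 62.6 CPM at the fovea and 13.8, 18, 19 and 9.32 at the periphery, without overlap, and differed by 2.38 ± 0.22 (SE), adjusted p = 1.76e-05. CACNA1C read 31.4, 38, 21.7 and 29.6 CPM at the fovea and 8.02, 7.53, 17.9 and 8.89 at the periphery, where eye 3 was the highest, and differed by 1.51 ± 0.28 (SE), adjusted p = 0.00133. Both genes are known from muscle cells among others, and the smooth muscle markers moved with them from 6060 to 10283 CPM at the fovea to 623 to 2215 at the periphery. Endothelial marker sums moved the same way, from 1745 to 2690 CPM at the fovea to 1099 to 1426 at the periphery. The part of either list was not tested.

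CACNA1D read 33, 33.2, 20.7 and 24.9 CPM at the fovea of RPE/choroid and 13.1, 10.2, 12.2 and 12.1 at the periphery. The 4 peripheral eyes were alike and all below the foveal eyes, and the log2 difference was 1.19 ± 0.16 (SE), adjusted p = 0.000218. HCN2 read 20.2, 23.8, 41.2 and 38.5 CPM at the fovea and 15.9, 1.95, 2.79 and 8.98 at the periphery, where eyes 2 and 3 were under 3 CPM and eye 1 was not, and differed by 1.96 ± 0.61 (SE), adjusted p = 0.0231. The call for HCN2 was lost when eye 2, 3 or 4 was left out. CACNA2D1 and CACNB1 were higher at the fovea by 0.99 and 0.71.

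The 3 lower members were CACNA1F, CACNA2D4 and CACNG3. CACNA1F in RPE/choroid was 37.1, 30.7, 84.8 and 59.6 CPM at the fovea and 144, 57.1, 127 and 108 at the periphery, and the groups overlapped through periphery eye 2 and fovea eyes 3 and 4. The log2 difference was -1.15 ± 0.27 (SE), adjusted p = 0.00602. CACNA2D4 read 80.2, 66.8, 111 and 102 and 189.5, 59.1, 176 and 178 CPM, with periphery eye 2 below 4 of 4 foveal eyes, and differed by -0.76 ± 0.28 (SE), adjusted p = 0.0474. CACNG3 had 4, 2, 4 and 9 estimated counts at the fovea and 179, 2, 23 and 53 at the periphery, most of them in eye 1, with an adjusted p of 0.0344. The calls for CACNA2D4 and CACNG3 were lost with the eye as a block and when eye 1, 3 or 4 was left out. They were also lost without the 3 RPE/choroid libraries with the most rod marker counts, among which were periphery eyes 1 and 4, whereas CACNA1F was still called. That run kept only eyes 2 and 3 at the periphery, so that rod content and fewer libraries cannot be told apart in it.

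Between the fovea and the perimacula, and between the fovea and the nasal location, no member was called in RPE/choroid by edgeR, of 34 and 35 tested, where 0.0447% and 0.361% of all genes were. At an unadjusted p under 0.05 there were 5 members for the perimacula (among them CACNA1H, CACNB2, HCN4 and SCN9A) and 4 for the nasal location (among them CACNA1A, CACNB4 and SCN2B), where 10.7% and 15.5% of all genes were. DESeq2 called 3 and 1. The lowest edgeR value among them belonged to CACNA1A, which read 13.6, 23.2, 2.60 and 2.21 CPM at the fovea and 43.9, 36.2, 4.79 and 6.71 at the nasal location. Each nasal eye was above the foveal eye of the same number, and the log2 difference was -1.18 ± 0.25 (SE), adjusted p = 0.06. CACNB2 read 12.2, 10.2, 20 and 13.9 CPM at the fovea and 5.67, 4.14, 5.10 and 8.04 at the perimacula, without overlap, and differed by 1.28 ± 0.30 (SE), adjusted p = 0.166.

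**Figure D2:**
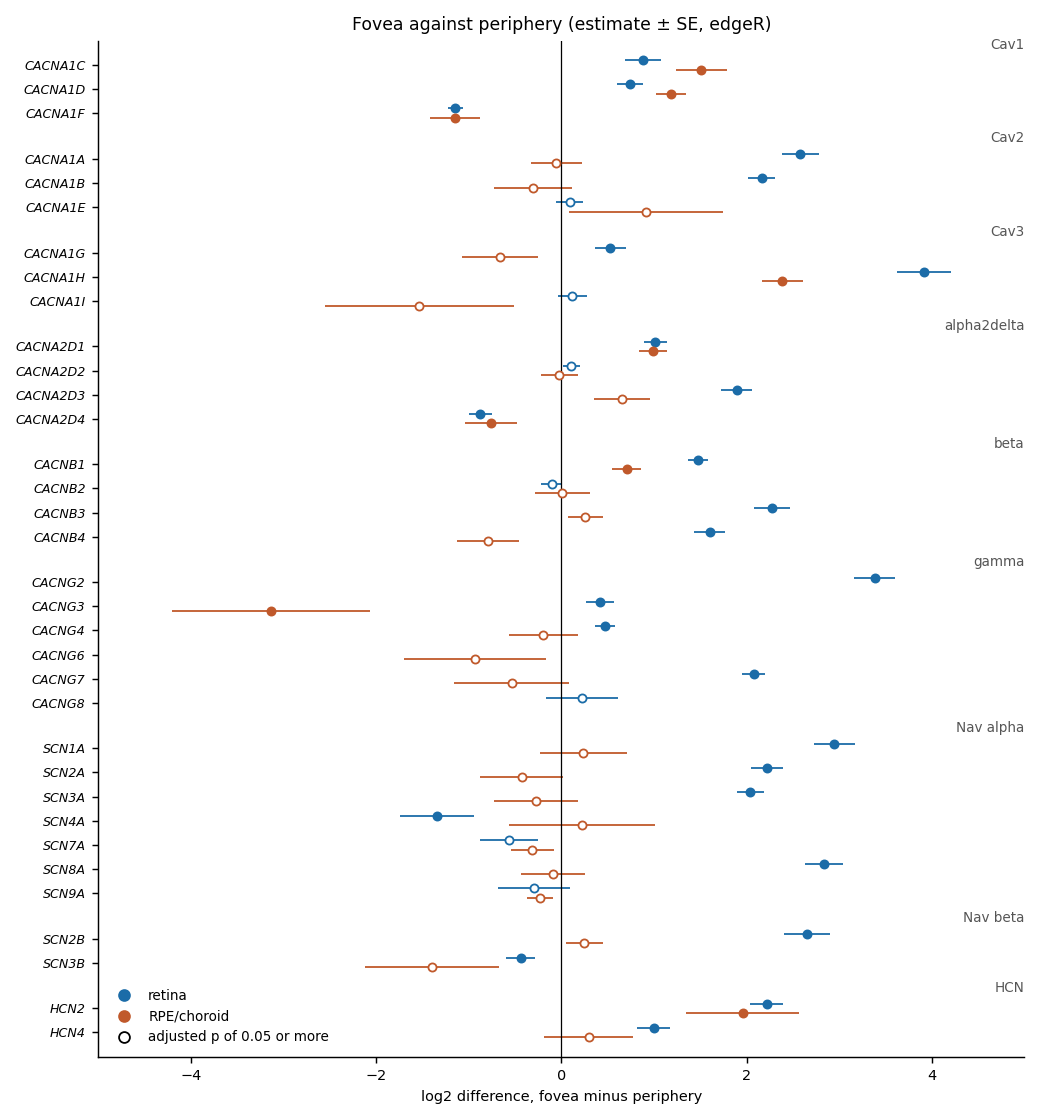
Log2 difference of fovea minus periphery from edgeR, with bars of 1 SE, for tested members by subfamily in retina (blue) and RPE/choroid (orange); open symbols had an adjusted p of 0.05 or more, CACNA1S is left out because its foveal RPE/choroid libraries were at 0, and members that are not reported here are not drawn. CACNA1H lies at 3.92 in retina and 2.38 in RPE/choroid, and CACNA1F lies left of 0 in both, at -1.14 and -1.15.

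Most members were higher in retina than in RPE/choroid at each location. At the fovea 29 of 37 tested were higher in retina and 6 in RPE/choroid, where 37% and 38.4% of all 16382 genes were. At the perimacula these counts were 28 and 4 (37.7% and 39% of all genes), at the nasal location 26 and 5 (37.6% and 38.6%), and 26 and 6 at the periphery (37.8% and 37.9%). The median log2 difference of the 37 members was 3.13 at the fovea, 2.82 at the perimacula, 2.63 in the nasal punches and 1.96 at the periphery, while that of all genes lay between -0.013 and 0.017. CPM are not divided by transcript length, so that levels are compared between libraries and not between genes.

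The sodium channel alpha subunits were split between the tissues. SCN1A, SCN2A, SCN3A and SCN8A were higher in retina at all 4 locations, and SCN7A and SCN9A in RPE/choroid. SCN7A (Nax, a sodium-sensing member of the family) read 141, 117, 166 and 146 CPM in RPE/choroid and 1.31, 1.17, 0.857 and 1.08 in retina at the fovea, a log2 difference of -7.00 ± 0.34 (SE), adjusted p = 2.9e-16. At the periphery it read 177, 284, 137 and 121 CPM in RPE/choroid, where eye 2, the library with the highest Schwann cell sum, was the highest. At the nasal location, where those sums lay between 999 and 1084 CPM, SCN7A read between 122 and 193 CPM. SCN9A (Nav1.7, a channel of peripheral nerve fibres), singled out after its values were seen, read 12, 11.5, 11.4 and 12.9 CPM in RPE/choroid and 0.164, 0.122, 0.115 and 0.315 in retina at the fovea, a difference of -6.08 ± 0.30 (SE), adjusted p = 3.87e-16. Neither SCN7A nor SCN9A was called between fovea and periphery in either tissue.

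These genes lie side by side. By symbol, in the RefSeq annotation of T2T-MMU8v2.0, which is not the build of the counts, SCN3A is followed by SCN2A with no protein-coding gene between, SCN2A by SCN1A with 3 between, SCN1A by SCN9A with none and SCN9A by SCN7A with 1. The tissue difference thus changes sign within the cluster, between SCN1A (6.14 at the fovea) and SCN9A (-6.08). SCN10A and SCN11A are neighbours in another cluster. Elsewhere CACNG7, CACNG8 and CACNG6 follow each other with none and 1 between, and CACNG6 alone of the 3 was higher in RPE/choroid. It had 104, 99, 37 and 7 estimated counts in RPE/choroid and 0, 3, 11 and 8 in retina at the fovea, against 56, 42, 85 and 49 and 7616, 9853, 10423 and 11354 for CACNG7. CACNG6 was also chosen after its values were seen.

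CACNB3 changed its order between the tissues from one location to another. Retina minus RPE/choroid was 0.64 ± 0.24 (SE), adjusted p = 0.0196 at the fovea and -1.23 ± 0.25 (SE), adjusted p = 7.11e-05 at the periphery. The foveal call for CACNB3 was lost when eye 1, 3 or 4 was left out, and its foveal values were 39.8, 57.6, 26.9 and 28.8 CPM in RPE/choroid.

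CACNA1C was higher in RPE/choroid at all 4 locations, with -1.68 ± 0.24 (SE) at the fovea and -0.999 ± 0.24 (SE) at the periphery as retina minus RPE/choroid. CACNA1D did not differ detectably at the fovea (-0.055 ± 0.21 (SE), adjusted p = 0.819). At the periphery it was called higher in retina, a call lost when eye 1, 3 or 4 was left out. CACNA1H was higher in retina at the fovea (1.70 ± 0.32 (SE), adjusted p = 3.65e-05) and did not pass the test at the nasal location (0.897) or the periphery (0.4), values that are adjusted p. CACNA1F, CACNA1G and CACNA2D4 were higher in retina at all 4 locations. For CACNA1F retina exceeded RPE/choroid by 3.13 at the fovea and 3.27 at the periphery, while the sum of rod markers in RPE/choroid was at most 924 CPM. CACNA1G read 2.93, 4.08, 1.87 and 1.65 CPM in RPE/choroid at the fovea, a difference of 5.20 ± 0.38 (SE). HCN2 was higher in retina by 1.95 ± 0.40 (SE) at the fovea, and HCN4, with 0.394, 0.446, 0.264 and 0.373 CPM in RPE/choroid there, by 4.68 ± 0.32 (SE).

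**Figure D3:**
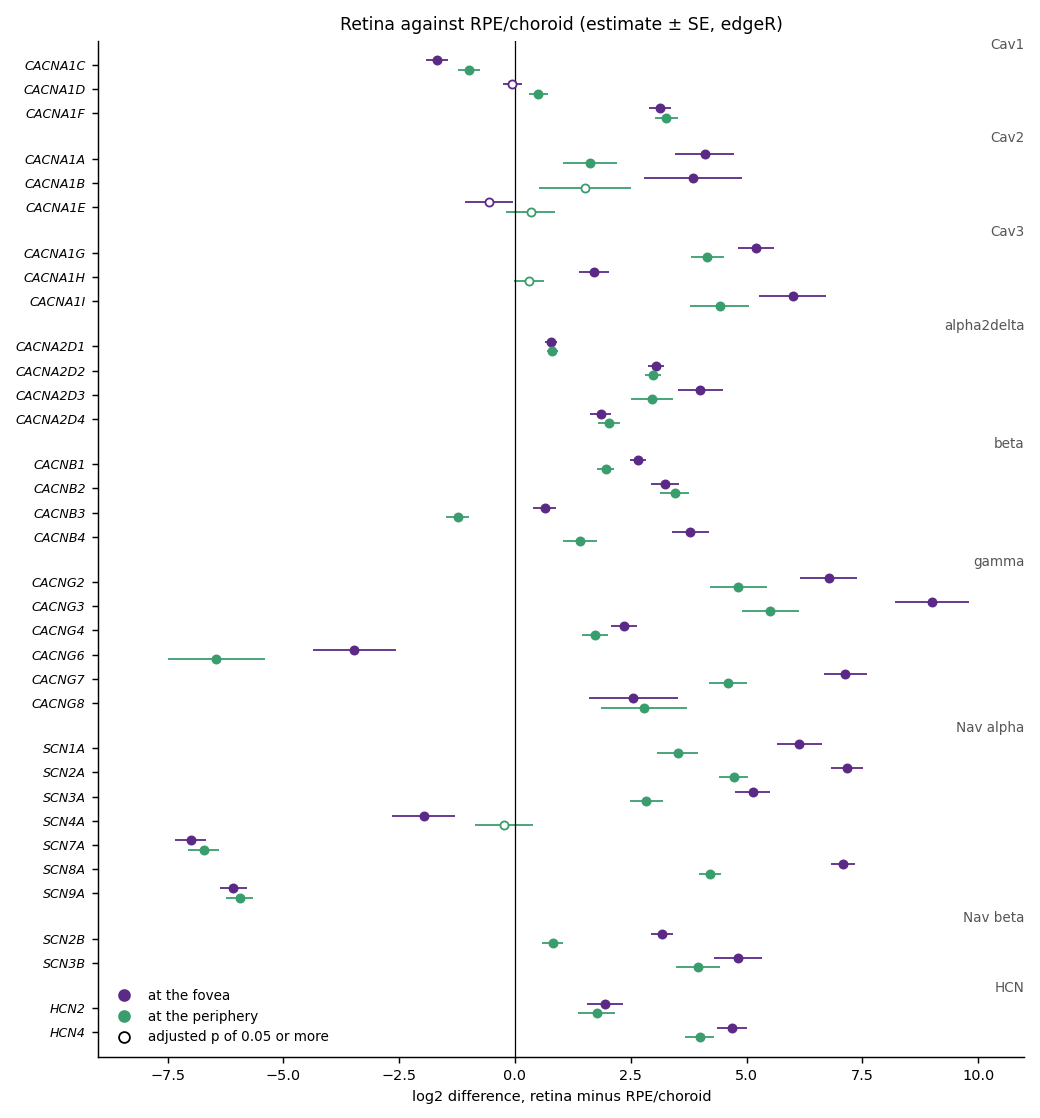
Log2 difference of retina minus RPE/choroid from edgeR, with bars of 1 SE, for tested members by subfamily at the fovea (purple) and the periphery (green); open symbols had an adjusted p of 0.05 or more, and CACNA1S and members that are not reported here are not drawn. SCN7A and SCN9A lie far to the left at both locations, and CACNB3 goes from 0.64 at the fovea to -1.23 at the periphery.

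The change between fovea and periphery, taken as fovea minus periphery, was compared between the tissues as an interaction. It was called for 15 of 37 members, against 43.5% of all genes tested. In 14 of the 15 the change was more positive in retina, as it was in 19.1% of all genes tested, whereas 24.5% of genes were called in the other direction. Sodium channel subunits made up 7 of the 15. SCN8A changed by 2.84 in retina and -0.088 in RPE/choroid, a difference of 2.87 ± 0.31 (SE), adjusted p = 5.21e-08. The difference was 2.62 ± 0.58 (SE), adjusted p = 0.000617 for SCN1A, 2.45 ± 0.41 (SE), adjusted p = 2.5e-05 for SCN2A and 2.29 ± 0.48 (SE), adjusted p = 0.000347 for SCN3A. In RPE/choroid SCN1A, SCN2A, SCN3A and SCN8A were low, with 0.805, 0.914, 1.26 and 0.606 CPM of SCN8A at the fovea and 1.24, 0.950, 0.582 and 1.04 at the periphery. Among calcium channel subunits CACNA1A differed by 2.47 ± 0.80 (SE), adjusted p = 0.0145, CACNB3 by 1.88 ± 0.35 (SE), adjusted p = 8.87e-05, CACNB4 by 2.39 ± 0.52 (SE), adjusted p = 0.000524 and CACNG7 by 2.53 ± 0.54 (SE), adjusted p = 0.000402. CACNA1H, higher at the fovea in both tissues, differed by 1.40 ± 0.45 (SE), adjusted p = 0.0131. The calls for CACNA1A and CACNA1H were lost without eye 1 and eye 3, respectively, and that for CACNG3 (3.49 ± 1.000 (SE), adjusted p = 0.00606) without eye 1. Also among the 15 was CACNA1S, at 0 counts in the foveal RPE/choroid libraries, whose call was lost when any 1 eye was left out. The call for CACNB1 was lost without eye 1, 3 or 4. CACNA1F and CACNA2D4 were lower at the fovea in both tissues, and the interaction made no call for them (-0.13 ± 0.32 (SE), adjusted p = 0.774 and -0.19 ± 0.32 (SE), adjusted p = 0.679).

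The same interaction for fovea minus nasal location, within shared flow cells, was called for 7 members, against 23.5% of all genes. In all 7 the change was more positive in retina, where 11% of all genes tested were called in that direction and 12.5% in the other. Among these were CACNA1A, CACNA1H, CACNB1, CACNB3, SCN2B and SCN8A. SCN8A gave 1.57 ± 0.32 (SE), adjusted p = 0.000761, CACNB3 1.47 ± 0.34 (SE), adjusted p = 0.00261 and CACNA1H 1.65 ± 0.45 (SE), adjusted p = 0.00794. The calls for CACNA1A, CACNA1H and CACNB1 were each lost when 1 or more single eyes were left out, and that for SCN2B when any 1 of the 4 eyes was left out or the eye was entered as a block. The median difference over the members was 1.04 for the periphery and 0.24 for the nasal location, against -0.070 and -0.053 over all genes.

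Proteins that bind these channels were described by 3 lists. Of the 16 entries for 15 partners of sodium channels at the axon initial segment, 14 were higher and 2 lower at the fovea than at the periphery of the retina, where 31% and 36% of all genes tested were. CNTN2 and ANK3, an axonal adhesion molecule and the ankyrin that anchors sodium channels, were higher by 2.23 and 0.56 on the log2 scale. The 2 entries of FGF13, a cytoplasmic binder of sodium channels, were the lower ones (-1.09 and -0.76). Of 30 entries tested for partners of calcium channels at synapses, 14 were higher and 9 lower in that comparison. CABP4, which binds Cav1.4 in photoreceptor terminals, read 91.6 ± 17.4 CPM (SD, n = 4) at the fovea and 360 ± 60.2 at the periphery, a difference of -1.92 ± 0.12 (SE), and RIMS2 was lower (-0.31). UNC13A and RIMS3 were higher at the fovea by 2.21 and 1.63. Of 10 partners of HCN and sodium leak channels, 5 were higher and 2 lower. PEX5L (TRIP8b), which carries HCN channels to the membrane, read 77.0 ± 9.86 CPM at the fovea and 11.8 ± 4.36 at the periphery (SD, n = 4), a log2 difference of 2.80 ± 0.26 (SE), and NALCN, the sodium leak channel, was 1.39 higher. In RPE/choroid, where 21.2% of all genes were higher at the fovea and 22.9% lower, 5 of 15 entries tested in the first list were higher and 0 lower. In the second list 5 of 28 were higher and 6 lower, and in the third 4 of 10 were higher and 1 lower. There STAC3, an adaptor of L-type channels in muscle, was lower at the fovea (-1.23), and CAV3, the muscle caveolin, was higher by 1.38.

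In RPE/choroid 3 members separated the animals. The 8 libraries of RM03 lay above the 8 of RM04 for CACNA1A (13.6 to 43.9 against 1.83 to 6.71 CPM), CACNA1B (10.5 to 29 against 0.53 to 2.02) and CACNA2D3 (4.73 to 18.9 against 1.97 to 3.26). The means of the 8 libraries differed 7.11-fold, 17.9-fold and 4.97-fold. Such separation, in either direction, was found in 3 of 37 members and in 4.91% of all genes tested in RPE/choroid, and in 0 of 37 members and 3.62% of genes in retina, where CACNA1A, CACNA1B and CACNA2D3 overlapped between the animals. CACNA1B and CACNA2D3 were singled out after their values were seen. With 2 animals no test of this difference was made.

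**Figure D4:**
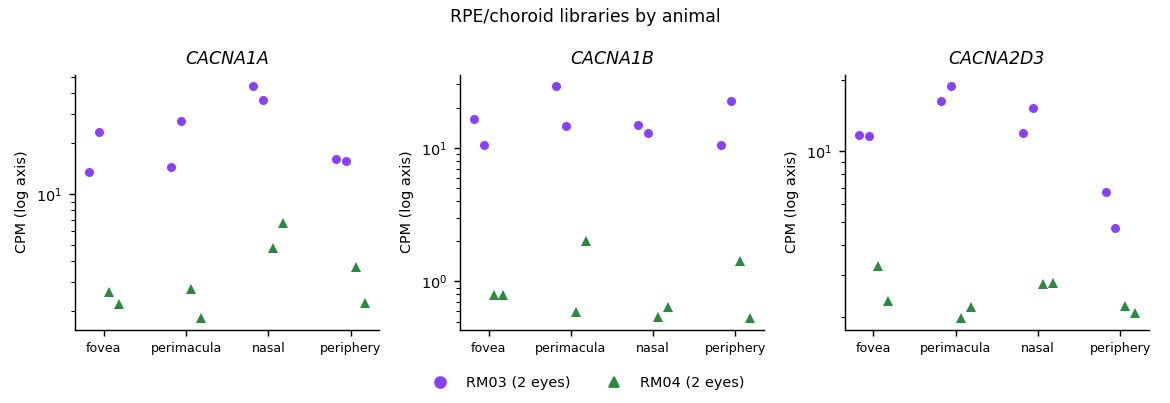
CPM (log axis) of CACNA1A, CACNA1B and CACNA2D3 in the RPE/choroid libraries of RM03 (purple circles) and RM04 (green triangles) at 4 locations, 1 point for each library. For CACNA1B the RM03 libraries sit between 10.5 and 29 CPM and those of RM04 between 0.53 and 2.02.

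A few members were at or near the limit of counting. SCN10A had 1 estimated count in the 32 libraries together, and SCN11A, of the same neighbourhood and known from sensory neurons, had at most 11 in a library. CACNG1, a subunit of the skeletal muscle channel, had 1, 3, 3 and 2 estimated counts in retina at the fovea and 0 in 4 of 4 libraries of RPE/choroid there. CACNA1S, the pore subunit of that channel, had 10, 16, 15 and 9 at the fovea and 10, 3, 14 and 15 at the periphery of the retina, and 0, 0, 0 and 0 and 16, 0, 0 and 0 in RPE/choroid. No fold change is given against groups at 0, since a count of 0 allows up to 3 counts, and such limits cover counting error only. SCN4A, the sodium channel of skeletal muscle, had 1, 3, 6 and 16 estimated counts at the fovea and 10, 12, 34 and 31 at the periphery of the retina, and although it was called there (-1.34 ± 0.40 (SE), adjusted p = 0.0103), it was lost when eye 3 was left out.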

How the data were processed

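The authors quantified every lane separately with Salmon 0.13 against Mmul_8.0.1 transcripts, which tximport then collapsed to genes. The deposited values are expected counts (estimated counts scaled for transcript length), as sums of 7932259 to 39439054 in the 136 lanes show. The 2 to 5 lanes of each library were summed and rounded, giving 32 libraries of 42448891 to 78574034 counts. For the main fits and the CPM, depth was the library total over the genes kept by the filter, multiplied by a TMM factor. Of 40 member identifiers, 37 matched the symbol of the reference table.

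Tests used edgeR 4.0.16 under R 4.3.3 (quasi-likelihood, TMM, filterByExpr at a minimum count of 10) on all genes, with a term for the monkey and Benjamini-Hochberg adjustment across every gene tested, called at an adjusted p under 0.05. The fovea, perimacula and periphery of a tissue were fitted together, the nasal libraries were added for comparisons with them, and tissue comparisons and interactions from a fit of all 32 libraries. The tests were tried on simulated data. Summaries and figures used Python 3.11.15, pandas 2.3.3 and matplotlib 3.10.9. Alternatives were DESeq2 1.42.0, RLE normalization, other filters on low counts, the eye as a block, no covariate, fellow eyes summed, 2 lanes per library, only the compared locations, the nasal libraries included, and leaving out each eye. Runs without some RPE/choroid libraries were added after the data were seen. They left out periphery eye 2, with the highest Schwann cell sum, or the 3 libraries with the most rod marker counts.

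Replicate numbers mark the same eye, so they pair the samples. Over the 1000 most variable genes, deviations from the group mean correlated by a mean of 0.60 in retina and 0.45 in RPE/choroid between libraries of the same eye, and as much between fellow eyes (0.60 and 0.48). After the animal mean was removed the same-eye means were -0.13 and -0.14 and those of fellow eyes -0.148 and -0.0645. Removing that mean itself lowers correlations within an animal, so that these values cannot show whether eyes differ within an animal.

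Values for each eye are given for the most abundant member of each subfamily in each tissue, the 5 largest called differences of each sign between fovea and periphery in each tissue, members whose change has opposite signs in the 2 tissues, and a list of channels known from the retina and from muscle. The members, lists and tests were chosen with earlier results of these data known. Some members that the counts include are not reported here, and the markers OPN1SW, VSX1, MYH3, MLANA and SOX10 and the partners CABP1 and KCNE2 were not analysed here.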

Additional observations from a re-analysis of the deposited data

Results flagged for a closer look

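Of 177 groups of 4 eyes examined, 4 held a value whose gap to its neighbour was large for the range of the group, where chance gives about 1 in 20. These 4 were a smaller share of the groups than chance gives. In RPE/choroid at the periphery, eye 2 was low for CACNA2D4 (59.1 CPM, the others 176 to 190) and for CACNG7 (0.177 CPM, the others 1.78 to 2.85). That library also had the highest Schwann cell and the lowest RPE marker sum of its group. In retina, perimacula eye 4 was high for SCN8A (84.5 CPM, the others 42.8 to 47.2) and fovea eye 4 was high for CACNB3 (64.9 CPM, the others 57.9 to 58.6).

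The change between fovea and periphery, taken as fovea minus periphery, differed between retina and RPE/choroid for 15 members by the interaction test of edgeR. For 10 of them the difference is listed, on the log2 scale, as the retina change minus the RPE/choroid change. It was 2.47 for CACNA1A, 1.4 for CACNA1H, 1.88 for CACNB3, 2.39 for CACNB4, 3.49 for CACNG3, 2.53 for CACNG7, 2.62 for SCN1A, 2.45 for SCN2A, 2.29 for SCN3A and 2.87 for SCN8A. Among the others called were CACNA1S, CACNB1 and SCN2B. Periphery and flow cell cannot be told apart in either tissue.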

How the results depend on the processing

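No result changed its direction under any alternative run. In RPE/choroid the 0 members called between fovea and perimacula became 3 with DESeq2, 4 with only these locations fitted and 1 (CACNB2) without periphery eye 2, and the 0 between fovea and nasal location became 1 (CACNA1A) with DESeq2 and 1 with only these locations fitted. The 7 members with a tissue difference in the change between fovea and nasal location became 4 without the monkey covariate and 4 with fellow eyes summed. Leaving out an eye gave 4 to 9, with 4 without eye 1 or eye 3 and 9 without eye 2. The causes were not tested. The other counts of members called stayed within 1.5 times. With the eye as a replicate block, 9 of 11 members were called between fovea and periphery in RPE/choroid, 24 of 25 between fovea and nasal location in retina and 6 of 7 in the tissue difference for the nasal location, and the block changed no other call. CACNG1, SCN10A and SCN11A did not pass the filter on low counts in the fit of all 32 libraries and were not tested. The fits within a tissue tested fewer members, 36 in retina and 34 or 35 in RPE/choroid.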
